A study of Mus musculus with 6 samples.

Results

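The 10 genes described here mark the lining of blood vessels or carry leukocyte adhesion: Vcam1, Icam1, Icam2, Pecam1, Cdh5, Kdr, Tek, Tie1, Vwf and Eng. They were chosen by gene symbol in the platform annotation, which gave 14 probe sets of the 12488 on the array (10 of 8251 genes with a probe set of their own). Pancreatic total RNA was compared between CF mice and control mice. The CF group held 3 males of genotype CFTR-/- aged 57, 56 and 58 days (replicates 1, 2 and 3). The control group held 3 males of genotype CFTR+/+ aged 57, 56 and 57 days. Both groups were gastrin+/-, were 95% black6 and 5% 129Sv by descent, and received Peptamen, a peptide-based diet, from day 10 of life. The Cftr gene product is an anion channel of epithelia, and its loss causes cystic fibrosis. One mouse was hybridised per array.

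Endothelial cells form the inner wall of blood vessels and make up a small share of the pancreas, where a dense capillary net surrounds the acini and the islets. Their identity rests on junction proteins, on receptors for growth factors of the VEGF, angiopoietin and TGF-beta families, and on stored von Willebrand factor. Inflamed endothelium displays Vcam1 and Icam1, which hold passing leukocytes through integrins.

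Of the 14 probe sets, 6 passed the filter on dim values, 1 for each of Vcam1, Pecam1, Cdh5, Kdr, Tek and Eng, while Icam1, Icam2, Tie1 and Vwf were too dim on every probe set. A probe set was tested if at least 3 of the 6 arrays read above an intensity of 140.2, the 40th percentile of all values. By limma, 0 of the 6 passed an adjusted p of 0.05, where 5 of 7739 tested probe sets did (0.0646%), or 10 (0.129%) with the title suffix as a replicate block. Without the block, 0 of the 7739 passed as lower in CF. Vcam1 and Eng were lower in every CF array than in every control array. That is 2 of 6 tested probe sets, against 5.62% of all tested ones that were lower in this way, and 0 of 6 were higher in this way, against 7.37%. Vcam1 entered the test only through its control values, so this count and the medians over the tested genes are descriptions. At an unadjusted p under 0.05 the same 2 were lower and 0 were higher, where 3.11% of all tested probe sets were lower and 7.38% lay in either direction.

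Intensities are on a linear scale in arbitrary units, and array medians lay between 207.8 and 234.4. Differences are CF minus control on the log2 scale, after values under 47.6 (the 20th percentile) were raised to it, so they understate changes of dim genes. As a check of the labelled tissue, the 8 measured acinar genes summed to 609413 to 679247 in CF and 643689 to 886532 in control. Fewer endothelial cells and less RNA per cell cannot be told apart in this whole tissue RNA. The number of arrays limits precision, and the median standard error over all tested probe sets was 0.29.

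**Figure D1:**
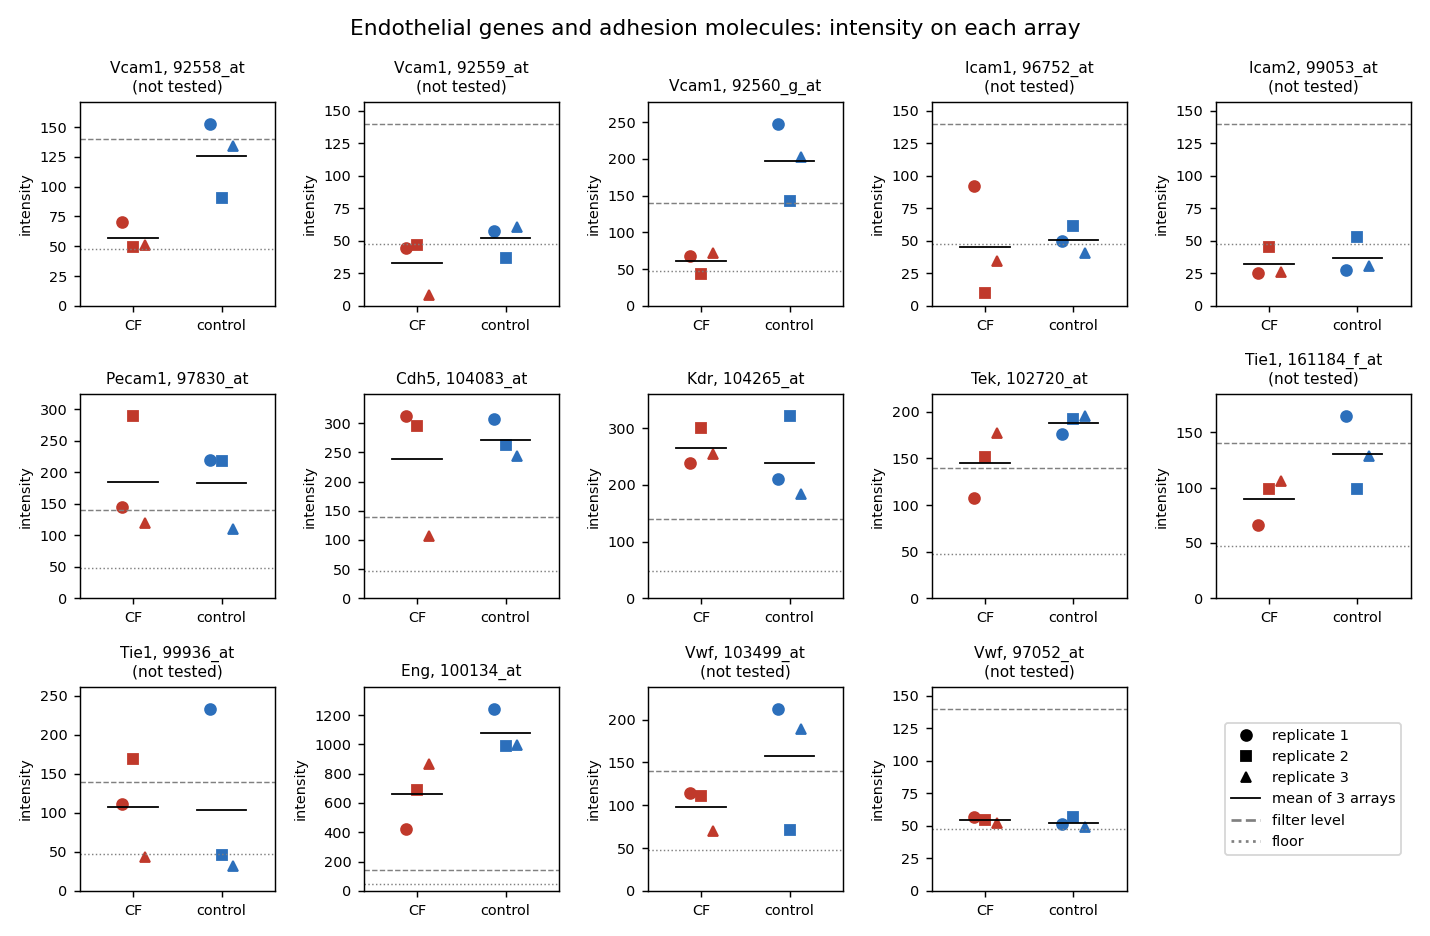
Each panel shows 1 probe set, with CF arrays left of control arrays, intensity on a linear axis from 0, a marker shape per replicate and a bar at the mean of 3 arrays. The dashed line is the filter level of 140.2 and the dotted line the floor of 47.6. In Eng and on 2 Vcam1 probe sets the CF points all lie below the control points, and in the other 11 panels the groups overlap.

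Vcam1 encodes vascular cell adhesion molecule 1, which binds integrin alpha-4 beta-1 on leukocytes and is also made by stromal and lymphoid cells. On its tested probe set (92560_g_at) the CF replicates 1, 2 and 3 read 68.4, 43.2 and 72.6, against 247.9, 142.7 and 202.3 in the control replicates. All CF arrays were below the filter level and all control arrays above it. Mean intensity was 61.4 ± 15.9 in CF and 198 ± 52.8 in control (SD, n = 3 per group). The log2 difference was -1.64 ± 0.52 (SE; 95% interval -2.82 to -0.46), which did not pass (limma adjusted p = 0.50, unadjusted p = 0.012). Of the 7739 tested probe sets, 24 had a lower difference and 184 had a smaller p. These ranks are a description, since this probe set entered the test only through its control values. Within the pairs of arrays that share a title suffix the difference was -1.86, -1.58 and -1.48. It was -0.46 when the floor was set at the 40th percentile, since that floor lies above all CF values.

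The remaining Vcam1 probe sets were too dim to be tested. One of them (92558_at) read 70.3, 49.2 and 51.0 in CF, against 152.8, 90.8 and 133.8 in control. Its groups were apart in the same direction as on the tested probe set. The other (92559_at) read 44.5, 46.8 and 8.2 in CF and 57.7, 37.0 and 61.0 in control. It straddled the floor, and its groups overlapped. With the Eng probe set, 3 of the 14 were lower in CF without overlap and 0 were higher, where 5.33% of the 12422 probe sets other than controls were lower and 6.30% higher in this way. The 3 Vcam1 probe sets measure the same gene and are not independent of each other.

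The intercellular adhesion molecules gave no usable level. Icam1, the endothelial ligand of the leukocyte integrins LFA-1 and Mac-1, read 92.0, 9.6 and 34.2 in CF and 49.7, 61.6 and 40.5 in control. The CF values spread on both sides of the control values, and all 6 lay below the filter level. Icam2, a ligand of LFA-1 that resting endothelium carries, read 25.3, 45.3 and 25.8 in CF, against 27.9, 53.2 and 30.5 in control. In both groups replicate 2 was highest. Both genes are reported as dim, with no difference drawn.

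Among the junction proteins, neither Pecam1 nor Cdh5 separated the groups. Pecam1, or CD31, a homophilic adhesion protein of endothelial junctions and also of platelets and leukocytes, read 145.0, 289.1 and 119.9 in CF, against 219.0, 218.4 and 110.5 in control. Replicate 3 was lowest in both groups. Means were 185 ± 91.3 in CF and 183 ± 62.5 in control, and the log2 difference was -0.02 ± 0.49 (95% interval -1.13 to 1.08; limma adjusted p = 1.00). Its sign turned when any of 4 arrays was left out, with values from -0.40 to 0.23.

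Cdh5 is VE-cadherin, the adhesive protein of endothelial adherens junctions. It read 312.0, 295.8 and 106.1 in CF, against 308.0, 262.6 and 243.5 in control. CF replicate 3 stood alone below all other arrays, and the other CF values matched or exceeded those of their suffix partners. The log2 difference of -0.34 ± 0.45 (95% interval -1.36 to 0.68; limma adjusted p = 0.91) became 0.17 without CF replicate 3, -0.61 without CF replicate 1 and -0.57 without CF replicate 2. Changes within these intervals cannot be told from none at this number of arrays.

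Receptors were measured for the 3 growth factor families. Eng, or endoglin, a co-receptor for ligands of the TGF-beta and BMP families, was above the filter level on all 6 arrays. Values were 423.5, 689.8 and 866.4 in CF, against 1243.4, 991.2 and 996.2 in control. Each CF array lay below each control array, and CF replicate 1 was lowest. Mean intensity was 660 ± 223 in CF and 1077 ± 144 in control, a log2 difference of -0.76 ± 0.28 (95% interval -1.39 to -0.13). It did not pass (limma adjusted p = 0.60, and 0.39 with the replicate block; unadjusted p = 0.024). Differences within suffix pairs were -1.55, -0.52 and -0.20, all negative and unequal in size. Without CF replicate 1 the difference was -0.47.

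Tek encodes Tie2, the angiopoietin receptor that keeps vessels quiescent. CF values were 107.1, 151.6 and 177.7, against 176.1, 192.5 and 195.3 in control. The groups overlapped narrowly, with CF replicate 3 just above control replicate 1. The log2 difference was -0.40 ± 0.39 (95% interval -1.28 to 0.49; limma adjusted p = 0.88), with suffix pairs at -0.72, -0.34 and -0.14. It was -0.19 without CF replicate 1.

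Kdr, the main signalling receptor for VEGF-A (VEGFR2), was the tested gene with a difference above 0. It read 238.4, 299.8 and 254.7 in CF, against 210.8, 321.2 and 184.5 in control. Replicate 2 was highest in both groups, and the values overlapped. The log2 difference was 0.18 ± 0.33 (95% interval -0.57 to 0.93; limma adjusted p = 0.94). It stayed above 0 in the 14 alternatives that tested it, from 0.02 without control replicate 3 to 0.42 without control replicate 2.

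The promoter windows of Eng, Tek and Kdr are shown because these receptors were all tested and gave different readings, Eng without overlap between groups, Tek with a narrow overlap and Kdr on the other side of 0. Each window runs from 250 bases before to 50 bases after the gene's start in RefSeq, build GRCm38.p6, and 5 of the 10 genes had such a window: these 3, Icam1 and Tie1. Capitals mark CNGGAA, searched on both strands. It holds GGAA, the core recognised by ETS factors, which regulate many endothelial genes. N is any base, so the pattern is looser than an ETS site and also counts matches such as the CGGGAA of Kdr. Eng lies at chr2:32646345-32646644 (+ strand), Tek at chr4:94739039-94739338 (+ strand) and Kdr at chr5:75978406-75978705 (- strand).
Eng: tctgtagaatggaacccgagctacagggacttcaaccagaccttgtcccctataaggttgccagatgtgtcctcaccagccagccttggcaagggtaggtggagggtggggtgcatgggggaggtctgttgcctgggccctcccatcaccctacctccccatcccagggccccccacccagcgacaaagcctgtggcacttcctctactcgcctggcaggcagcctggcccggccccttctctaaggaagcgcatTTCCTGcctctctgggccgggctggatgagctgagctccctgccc
Tek: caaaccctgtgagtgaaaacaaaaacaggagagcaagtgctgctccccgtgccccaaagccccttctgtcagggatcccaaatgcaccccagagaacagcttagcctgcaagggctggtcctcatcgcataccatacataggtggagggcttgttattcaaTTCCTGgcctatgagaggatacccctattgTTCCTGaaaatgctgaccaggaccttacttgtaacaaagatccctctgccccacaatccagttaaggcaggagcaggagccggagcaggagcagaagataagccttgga
Kdr: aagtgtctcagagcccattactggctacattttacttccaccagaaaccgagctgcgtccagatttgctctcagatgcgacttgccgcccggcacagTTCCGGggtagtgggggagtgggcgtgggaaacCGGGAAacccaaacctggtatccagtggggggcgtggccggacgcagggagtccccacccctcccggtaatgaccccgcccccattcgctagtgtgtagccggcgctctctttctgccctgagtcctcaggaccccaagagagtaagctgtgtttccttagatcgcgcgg
Eng held 1 match, at position 6 after the start, Tek held 2 and Kdr held 2. Of 32851 windows of 300 bases, 61.7% held at least 1 match.

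Tie1, an orphan receptor that pairs with Tie2, was dim on both probe sets. The first (161184_f_at, whose suffix marks probes that may match several related sequences) read 66.4, 98.4 and 105.6 in CF, against 164.5, 98.5 and 128.8 in control. The groups overlapped, since CF replicate 3 exceeded control replicate 2. The second (99936_at) read 110.8, 169.3 and 43.2 in CF, against 233.6, 46.2 and 32.3 in control. On it, 1 array of each group lay above the filter level, and the groups overlapped.

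Vwf, the adhesive glycoprotein that endothelial cells and platelets store and that captures platelets at wounds, was also dim. Its first probe set (103499_at) read 114.8, 110.7 and 69.9 in CF, against 212.8, 71.6 and 189.0 in control. Control replicate 2 fell among the CF values. The second (97052_at) read 56.7, 54.6 and 52.6 in CF and 51.2, 56.5 and 49.5 in control, just above the floor on every array.

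**Figure D2:**
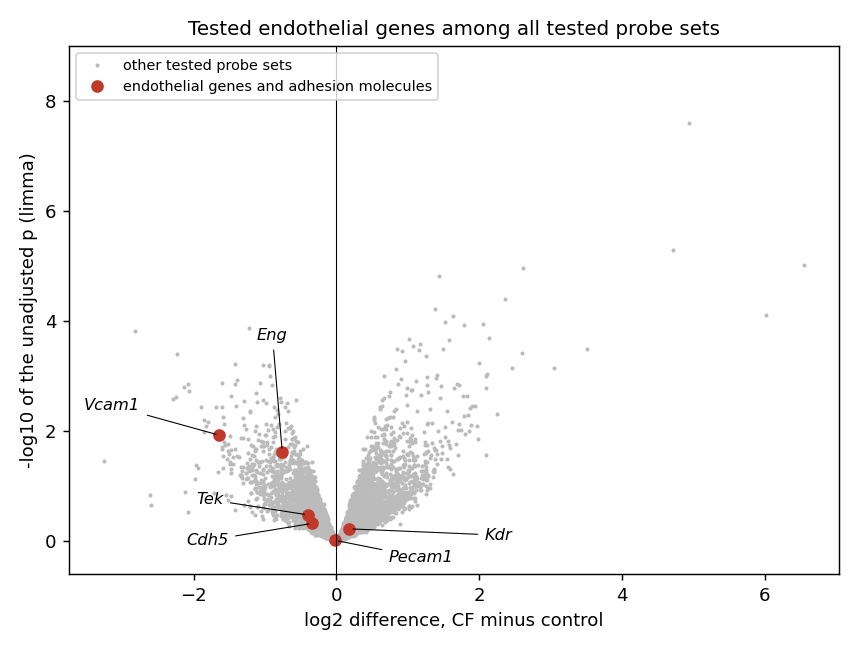
Each point is 1 tested probe set, with the log2 difference (CF minus control) on the x axis and -log10 of the unadjusted limma p on the y axis. Vcam1 at -1.64 and Eng at -0.76 lie on the lower side within the cloud of 7739 probe sets, and Tek, Cdh5, Pecam1 and Kdr lie near its base.

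The tested genes did not move as a block across the 6 arrays. Their median difference was -0.37, with 5 of 6 below 0, against a median of 0.00079 and 49.9% below 0 over all tested probe sets. Without CF replicate 3 the median was -0.19, with 3 of 6 below 0, and with the floor at the 40th percentile it was -0.24. Of the 15 pairs of genes, 7 had a positive Pearson correlation over the 6 arrays (median -0.03, range -0.57 to 0.92). Eng and Tek were closest (0.92), and Vcam1 followed Eng (0.75) and Tek (0.59). Kdr and Pecam1 formed another pair (0.62), and Kdr ran against Vcam1 (-0.57). These values share the 6 arrays and their group difference, and are given as a description.

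Averaged over Pecam1, Cdh5, Kdr, Tek and Eng, the profile of centred log2 values was -0.30, 0.19 and -0.29 in CF replicates 1, 2 and 3 and 0.23, 0.27 and -0.10 in the control replicates. CF replicate 2 sat within the control range and the other CF arrays below it. The 5 other named probe sets most like this profile, of 6895 compared over 6 arrays, were Plec (Pearson r = 0.99), Myh7 (0.97), Meox1 (0.97), Ctse (0.96) and Zbtb16 (0.96). The highest of so many correlations over 6 arrays can be this large without any relation, so these 5 are a description. Ctse read 36.4 and 26.4 in CF replicates 1 and 3, under the floor. Plec encodes the cytoskeletal linker plectin, Myh7 a cardiac and slow muscle myosin, Meox1 and Zbtb16 transcription factors, and Ctse an aspartic protease. Their differences ran from -1.19 for Meox1 to -0.24 for Plec, and 0 of the 5 passed (limma adjusted p from 0.70 to 0.92).

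Of 56 other endothelial markers, 42 had a probe set and 25 were tested, each on its brightest. By limma 0 passed in either direction, while 18 were below 0 and 7 above, with a median of -0.19. At an unadjusted p under 0.05, 2 were lower and 0 higher, and with the replicate block 2 were lower and 1 higher (Nrp1). One of the lower genes, Adgre5, entered the test only through its control values. The summed intensity of the 42 was 10661 to 11081 in CF and 11547 to 14565 in control, so the ranges did not overlap. The median of centred log2 values over the 25 tested genes, which gives bright genes no extra weight, did overlap. It was 0.00, -0.18 and -0.08 in CF replicates 1, 2 and 3 and 0.28, -0.02 and 0.06 in the control replicates. Of the defining markers, Nos3, Cldn5, Ptprb and Calcrl stayed dim on every array, with group means from 18.2 to 65.9.

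The 4 with the smallest p pointed in different directions. Adgre5, or CD97, an adhesion receptor best known on leukocytes, read 75.5, 64.3 and 21.1 in CF, against 247.3, 181.4 and 269.9 in control (log2 difference -1.90 ± 0.48, limma adjusted p = 0.30). Emcn, or endomucin, a sialoglycoprotein of capillary and venous endothelium, read 289.8, 157.6 and 293.6 in CF, against 446.0, 381.6 and 396.7 in control (-0.78 ± 0.32, limma adjusted p = 0.66). In both, every CF array lay below every control array. Nrp1, a VEGF and semaphorin co-receptor that is not restricted to endothelium, was at 0.49 ± 0.27, and Lyve1, the hyaluronan receptor of lymphatic endothelium, at -1.15 ± 0.65.

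**Figure D3:**
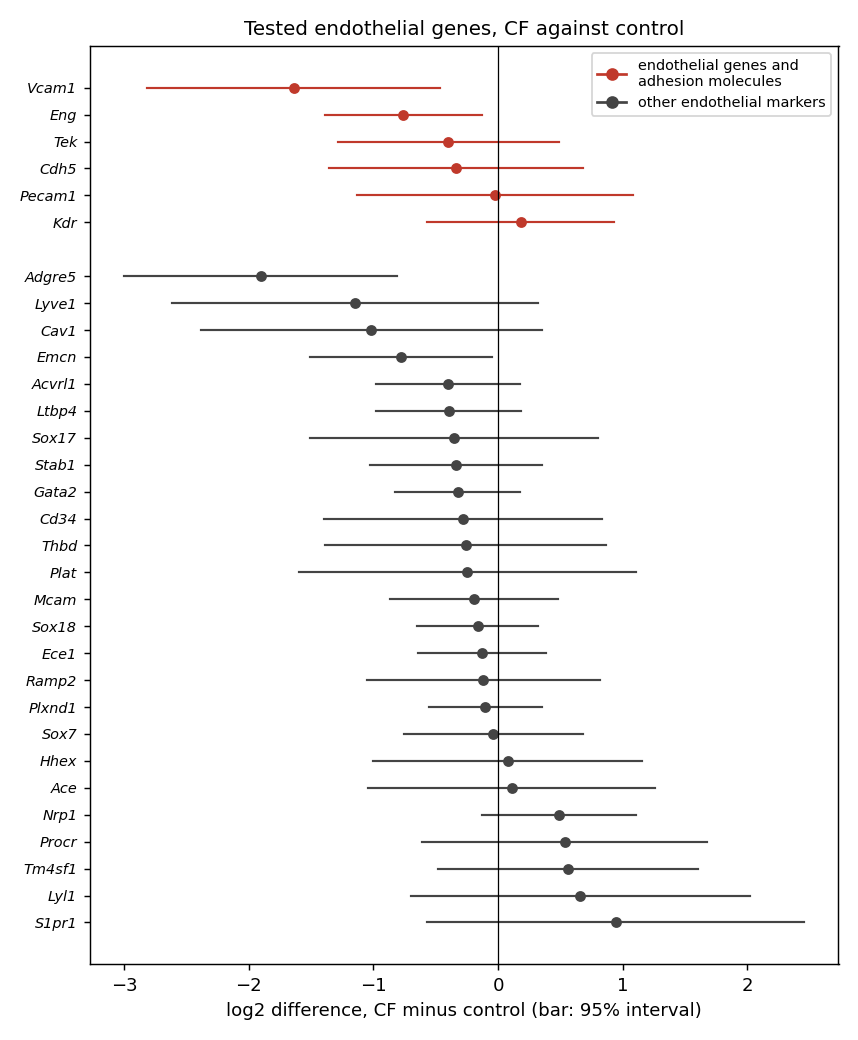
Log2 differences (CF minus control) of the 6 tested genes and, below them, of 25 other endothelial markers are drawn as points with 95% intervals from limma, unadjusted for the number of genes. The intervals of Vcam1, Eng, Adgre5 and Emcn lie below 0, and those of the other genes span it.

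Ligands and partners of these receptors were compared next. Of 13 vascular growth factors with a probe set, 5 were tested, 2 below 0 and 3 above (median 0.02), and 0 passed. Vegfb, a ligand of VEGFR1, read 865, 1176 and 1056 in CF, against 1205, 1337 and 1358 in control (-0.34 ± 0.18, limma adjusted p = 0.73). Its groups did not overlap. Vegfa, the ligand of Kdr, averaged 143 ± 137 in CF and 213 ± 93.3 in control, with CF replicate 3 within the control range. The angiopoietin Angpt1, the ligand of Tek, differed by 0.18 ± 0.40, and Angpt2 was dim, at 38.1 ± 33.1 in CF and 47.8 ± 17.6 in control.

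Around Eng, 14 of 20 genes of the TGF-beta pathway were tested, 9 below 0 and 5 above (median -0.18), and 0 passed. Acvrl1, the endothelial type I receptor that works with endoglin, averaged 880 ± 159 in CF and 1184 ± 356 in control (-0.40 ± 0.25, limma adjusted p = 0.78). Smad6, an inhibitory Smad, read 362.0, 452.3 and 448.7 in CF, against 518.9, 559.1 and 614.8 in control (-0.43 ± 0.22, limma adjusted p = 0.72). Its groups did not overlap, and nor did those of Inhba and Tgfb2, which were too dim to be tested. Smad2 and Id3, a target of BMP signalling, differed by -0.48 ± 0.33 and -0.61 ± 0.50. Among 7 tested genes of adherens or tight junctions, 2 were below 0 and 5 above (median 0.11), and 0 passed. Most of these are shared with epithelium, such as Ctnnd1, the p120 catenin (-0.12 ± 0.17), and Ocln, occludin (0.45 ± 0.35). F11r, the junctional adhesion molecule JAM-A, was higher in every CF array, at 1905 to 2028 in CF and 1664 to 1888 in control (0.14 ± 0.15, limma adjusted p = 0.88).

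Among 8 tested selectins and other adhesion molecules, 5 were below 0 and 3 above (median -0.04), and 0 passed. Madcam1, the addressin of gut venules that binds integrin alpha-4 beta-7, read 314.3, 123.4 and 337.1 in CF, against 400.4, 779.5 and 431.5 in control. All CF arrays were below all control arrays (-1.12 ± 0.44, limma adjusted p = 0.65). Alcam and Icam5 were higher, by 0.56 ± 0.35 and 1.06 ± 0.83 (limma adjusted p = 0.78 and 0.83), and their groups overlapped. At an unadjusted p under 0.05, 1 gene was lower and 0 higher, and with the replicate block 0 were lower and 1 higher (Alcam). The selectins of endothelium were dim, with P-selectin (Selp) at 69.6 ± 7.0 in CF and 109 ± 15.7 in control (without overlap) and E-selectin (Sele) at 31.3 ± 24.2 in CF and 31.1 ± 12.4 in control.

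The list of leukocyte integrins that bind such molecules also holds Fermt3, or kindlin-3, an intracellular activator of integrins. Of its 7 tested genes 5 were below 0 (median -0.20), Fermt3 among them (-0.70 ± 0.62), and 0 passed. Itga4, the alpha-4 chain that binds Vcam1, averaged 154 ± 60.7 in CF and 169 ± 21.6 in control. Itgal, the alpha chain of LFA-1, read 351.8, 417.2 and 406.8 in CF, against 445.6, 696.7 and 487.9 in control (-0.45 ± 0.25, limma adjusted p = 0.74). The 2 genes above 0 were Itgb2, the beta chain of LFA-1 (0.55 ± 0.62), and Itgb7 (0.29 ± 0.26).

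The tested genes of the list of NF-kappaB inducers and targets gave no common direction. Of these 14, 7 were below 0 and 7 above (median -0.01), and 0 passed. They are receptors, NF-kappaB components and targets. The inflammatory cytokines of the list (Tnf, Il1a, Il1b, Il6 and Ifng) were too dim to be tested, so no direction is given for them. Rela, the p65 subunit of NF-kappaB, read 3046, 3516 and 4708 in CF, against 2542, 2872 and 2857 in control (0.42 ± 0.19, limma adjusted p = 0.67). Each CF array lay above each control array. Sod2, a mitochondrial antioxidant enzyme and NF-kappaB target, was lower in every CF array, at 379.0 to 402.7 in CF and 430.5 to 453.6 in control (-0.17 ± 0.22, limma adjusted p = 0.91). Nfkbia, an inhibitor and a target of NF-kappaB, differed by 0.04 ± 0.18. Tnf, Il1b and Il6 were dim, with group means of 54.9, 29.9 and 14.1 in CF and 77.3, 32.9 and 18.2 in control. Ccl2, a chemokine target, was dim but for a reading of 232.6 in control replicate 1.

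For Vwf, 7 of 12 platelet genes and partners had a probe set and 2 were tested. F2r, a thrombin receptor, averaged 497 ± 39.3 in CF and 711 ± 139 in control (-0.50 ± 0.23, limma adjusted p = 0.68), without overlap. It does not mark platelets in the mouse. Pf4, a platelet chemokine, differed by 0.03 ± 0.43. Coagulation factor VIII (F8), which Vwf carries in plasma, was dim, at 61.9 ± 55.3 in CF and 54.3 ± 21.8 in control.

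Several marker lists of other cells had most of their tested genes below 0 in the CF arrays, and their part in the readings of Vcam1 and Eng was not tested. All 8 tested acinar genes were below 0 (median -0.21). The islet list had 5 of 9 below 0 (median -0.03) and the erythroid list 1 of 4 (median 0.03). Of 12 tested fibroblast and stellate markers, 11 were below 0 (median -0.39), with sums over 13 measured genes of 13477 to 17062 in CF and 16007 to 22299 in control. Of 9 adipocyte markers, 8 were below 0 (median -0.82), with sums of 5928 to 7791 in CF and 7548 to 18473 in control. Of 9 macrophage markers, 8 were below 0 (median -0.83; sums 4208 to 5493 in CF and 4929 to 9022 in control). Of 8 B and T cell markers, 7 were below 0 (median -0.61; sums 3812 to 7733 in CF and 6620 to 11877 in control). By limma 0 genes of these lists passed. At an unadjusted p under 0.05, 3 fibroblast, 4 adipocyte, 3 macrophage and 1 B and T cell marker were lower, where 3.11% of all tested probe sets were. With the replicate block the counts were 6, 7, 3 and 4 in that order, where 5.67% of all tested probe sets were lower. The macrophage markers Laptm5 (-0.71 ± 0.20) and Cd68 (-0.86 ± 0.27) were lower in every CF array (limma adjusted p = 0.43 and 0.51). So was the B cell marker Ms4a1 (-0.95 ± 0.18, limma adjusted p = 0.15). Cd14, the 1 tested macrophage marker above 0, was higher in every CF array. It read 1318 to 1665 in CF and 906 to 1252 in control (0.41 ± 0.20, limma adjusted p = 0.70). Mural cells, which wrap vessels, gave 5 of 9 below 0 (median -0.10), led by the smooth muscle actin gene Acta2 (-2.82 ± 0.44, limma adjusted p = 0.082), which entered the test only through its control values. All 4 measured mesothelial genes were tested and 3 were below 0 (median -0.52), and their sums of 1506 to 1626 in CF and 1967 to 2211 in control did not overlap.

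The tested Vcam1 probe set was highest in control replicate 1, then replicate 3, then replicate 2. The adipocyte, macrophage and fibroblast lists had that same order among the controls, with adipocyte sums of 18473, 11760 and 7548 in control replicates 1, 3 and 2. So did the other endothelial markers (sums of 14565, 12749 and 11547) and the TGF-beta, B and T cell and mesothelial lists. The mesothelial order was narrow (sums of 2211, 1976 and 1967). Its median centred log2 values (0.39, 0.25 and 0.32 in control replicates 1, 3 and 2) did not have it. The mural, acinar and islet lists were among those whose sums had another order. An order of 3 arrays can be shared by chance and is given as a description. The label of control replicate 1 alone specifies the entire pancreas. Without it, Vcam1 differed by -1.46 and Eng by -0.65, while 0 of the 6 tested genes had an unadjusted p under 0.05. In control replicate 2 the adipocyte sum was within the CF range, and Vcam1 there read 142.7, above all 3 CF arrays. As a measure of RNA integrity, the intensity of the 3' Gapdh probe set over the 5' one averaged 0.78 ± 0.08 in CF and 1.03 ± 0.37 in control, with control replicate 2 at 1.45. The same ratio for Actb averaged 1.94 ± 0.20 in CF and 1.95 ± 0.21 in control. Neither the part of RNA integrity nor that of other cell types in these results was tested.

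**Figure D4:**
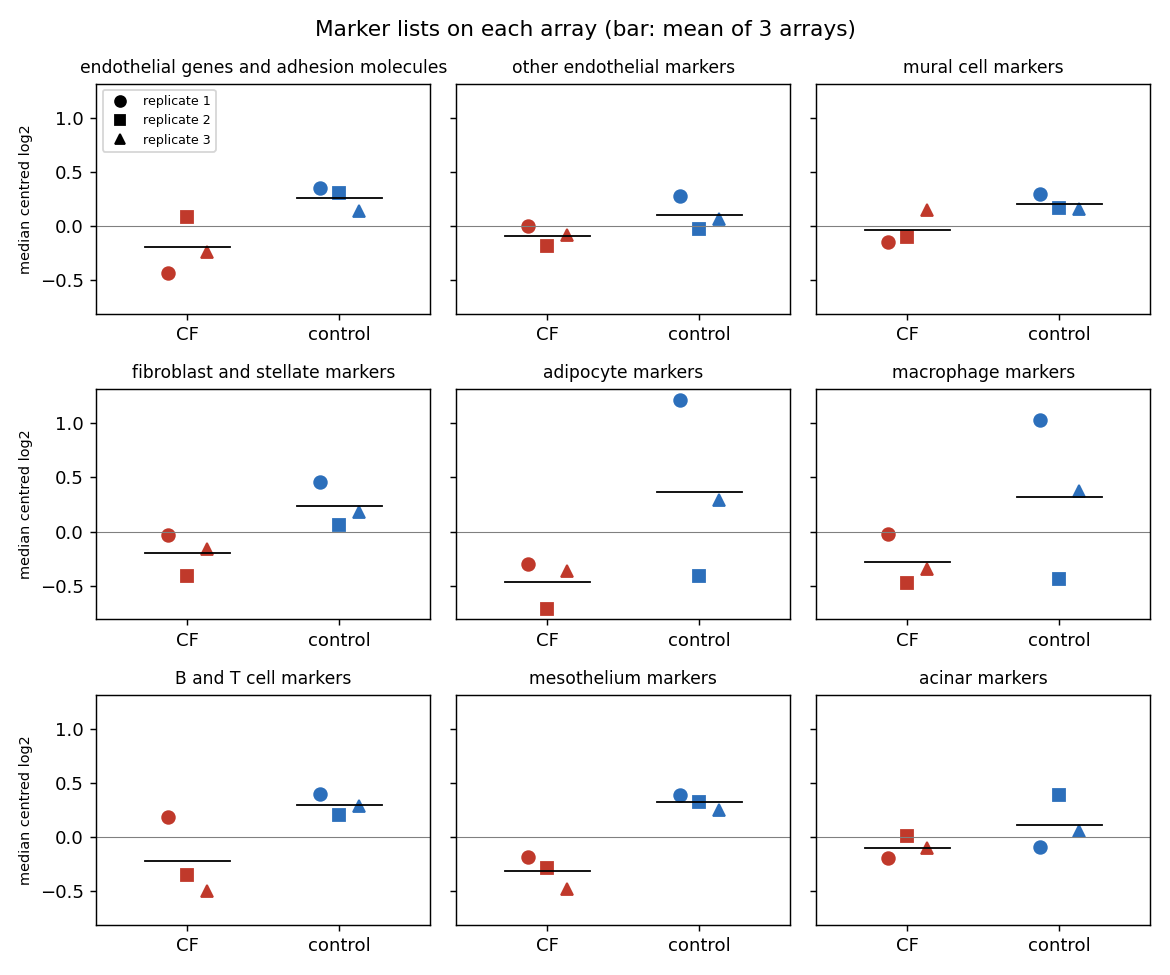
For each list, the median of centred log2 values over its tested genes is drawn per array, with CF left of control, a marker shape per replicate and a bar at the mean of 3 arrays. Control replicate 1 is the highest array in every list but the acinar one, at 1.22 in the adipocyte and 1.03 in the macrophage list. The endothelial genes range from -0.43 to 0.09 in CF and from 0.14 to 0.35 in control.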

How the data were processed

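Total RNA from 6 pancreases was measured on 1-colour oligonucleotide arrays. What the authors deposited is 1 linear intensity for every probe set on every array, and the software behind it is not given in the sources. Means without the outer 2% at each end were 499.9 to 500.2 on all arrays, so no further scaling was applied. Groups came from the genotype in the labels, and replicate numbers from the title suffix. Of 12488 probe sets, 10855 had 1 gene symbol, and 10839 of these were matched by gene identifier to RefSeq names (GRCm38.p6). Values under the pooled 20th percentile (47.6) were raised to it, log2 was taken, 66 control probe sets were left out, and probe sets above the pooled 40th percentile (140.2) on at least 3 of 6 arrays were kept, 7739 in all. CF and control were compared with limma 3.58.1 in R 4.3.3 (lmFit, eBayes with an intensity trend), with Benjamini-Hochberg adjustment over all 7739 and a threshold of 0.05. The fit was tested on simulated data. Deviations from group means correlated at 0.23 to 0.26 between arrays of the same title suffix and at -0.18 to -0.05 otherwise. These deviations cancel out within each group, so the negative values follow in part from the positive ones. The labels do not say what the suffix stands for, and the block was used as an alternative. The p-values printed are from the fit without a replicate block unless the block is named, and blocked values stand beside a printed count that they move by over 1.5 times. All probe sets of the 10 genes are named, plus up to 4 genes of smallest p in each other list and the 5 probe sets most like the average profile; other genes were added after their values were seen. The genes and lists were chosen with earlier results of these data known. Mouse and array variation are not separated in the p-values.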

Additional observations from a re-analysis of the deposited data

How the results depend on the processing

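Across 15 alternatives in scaling, floor, filter, variance model, array weights, block and arrays left out, 0 of the tested endothelial probe sets passed in limma (unadjusted p under 0.05 in 0 to 2, with 0 when control replicate 1 was left out). Eng, Tek and Vcam1 stayed below 0 and Kdr above 0 wherever they were tested, with Vcam1 from -1.86 to -0.46 and Eng from -0.99 to -0.47. Cdh5 turned to 0.17 without CF replicate 3 and ranged down to -0.61 without CF replicate 1. Pecam1 turned with array weights (0.11) and without single arrays, where it ranged from -0.40 to 0.23. The median of the tested genes, -0.37, was -0.76 with the filter at the 60th percentile, where Eng alone remained, -0.24 with the floor at the 40th percentile, and from -0.51 without CF replicate 2 to -0.19 without CF replicate 3, where 3 of 6 were below 0. Of 5 probe sets called over all genes, the number was 10 with the replicate block, 10 with the floor at the 40th percentile, 12 with array weights, 3 with no intensity trend, 0 with no filter (773 at an unadjusted p under 0.05), and from 1 to 11 without single arrays (1 without CF replicate 1 or CF replicate 2, 8 without CF replicate 3, 11 without control replicate 2). The block changed no call of the endothelial genes. The causes of these shifts were not tested. Dimness limits what can be said of Icam1, Icam2, Tie1 and Vwf.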
